A study of Mus musculus with 2 samples.

Results

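The TAM genes encode the receptor tyrosine kinases Tyro3, Axl and Mertk together with their ligands Gas6 and Pros1, and their expression was compared between mouse embryonic fibroblasts (MEF) with and without Lsh. The 5 genes were chosen by name for their place in this pathway and with their values on these arrays known, so those values are a description and were not tested. All 5 were found among the 16579 genes to which the deposited rows could be matched. Lsh, the product of Hells, is a chromatin remodelling protein of the SNF2 family that is needed for normal DNA methylation, and the study asked how cytosine methylation outside repeats goes with expression; methylation itself was not analysed here. Total RNA of Lsh+/+ MEF (the wild type group, WT) and of Lsh-/- MEF (the knockout group, KO), both grown in serum-containing medium with no treatment named, was hybridised to Affymetrix mouse arrays with 1 array per genotype. The labels call these cell lines and give neither the number of embryos behind each nor their passage, age or sex, so a difference between genotypes cannot be told apart from a difference between these cultures. Without replicates neither a spread nor a p-value could be had, and this number of arrays limits the precision of every value.

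Gas6 and Pros1 (protein S) are secreted proteins whose Gla domain, carboxylated with the help of vitamin K, binds phosphatidylserine on dying cells, while their other end engages the receptors. Gas6 binds all 3 receptors and is the ligand of Axl, whereas Pros1 acts through Tyro3 and Mertk. The pathway is known for the clearance of apoptotic cells, the damping of innate immune signals and cell survival, and Gas6 owes its name, growth arrest specific, to its induction in fibroblasts deprived of serum.

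Expression values are log2 values as deposited, and differences are Lsh-/- minus Lsh+/+. A value was read against the median of all rows on its array, 3.86 for Lsh+/+ and 3.88 for Lsh-/-. This limit marks dim rows and is not a detection limit. A gene with at least 1 value at or above it was kept, which left 9169 genes. Where the dimmer value lay below the limit, the fold is the brighter value over the limit and is written as "at least". This wording names how the fold was computed and is no proven minimum, since other processing can give a smaller fold. Of the 5 TAM genes 4 were kept: Axl lay above the limit on both arrays, Gas6 on the wild type array alone, and Pros1 and Tyro3 on the knockout array alone. Mertk was below it on both. A gene that is kept through 1 array alone has to differ between the arrays to some degree, so the number kept is no result.

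Because the study concerns cytosine methylation, the promoters of both ligand genes and of Axl are shown, from RefSeq on GRCm38.p6, each running from 250 bases before to 50 bases after the annotated start, 5′ to 3′ on the strand of the gene. The capitals mark the motif CG, the dinucleotide at which mammalian DNA is methylated. Gas6 lies on the minus strand at chr8:13494486-13494785, Pros1 on the plus strand at chr16:62854057-62854356 and Axl on the minus strand at chr7:25788684-25788983.
Gas6: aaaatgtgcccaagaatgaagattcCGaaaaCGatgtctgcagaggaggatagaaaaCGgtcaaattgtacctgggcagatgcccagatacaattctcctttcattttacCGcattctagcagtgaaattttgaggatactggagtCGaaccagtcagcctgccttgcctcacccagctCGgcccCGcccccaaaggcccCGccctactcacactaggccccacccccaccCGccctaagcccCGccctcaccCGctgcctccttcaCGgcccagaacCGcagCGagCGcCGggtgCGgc
Pros1: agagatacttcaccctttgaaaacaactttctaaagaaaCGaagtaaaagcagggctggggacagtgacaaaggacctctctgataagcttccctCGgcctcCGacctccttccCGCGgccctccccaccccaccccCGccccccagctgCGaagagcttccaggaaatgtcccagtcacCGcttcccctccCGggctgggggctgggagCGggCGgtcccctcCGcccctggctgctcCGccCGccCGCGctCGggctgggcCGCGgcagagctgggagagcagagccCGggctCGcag
Axl: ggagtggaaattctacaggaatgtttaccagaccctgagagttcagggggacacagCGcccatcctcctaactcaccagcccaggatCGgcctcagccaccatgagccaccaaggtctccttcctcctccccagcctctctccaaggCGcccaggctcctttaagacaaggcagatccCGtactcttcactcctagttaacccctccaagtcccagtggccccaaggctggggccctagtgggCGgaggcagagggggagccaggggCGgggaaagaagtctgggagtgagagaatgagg

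The Gas6 promoter held 17 CG, of which 10 fell in its last 100 bases, around the start. As many or more were present in 31.4% of 32851 promoters of the same length, whose median was 7 and of which 94.6% held at least 1. Pros1 held 21 CG, a count reached by 24.8% of promoters. Axl was the poorest of the 5 with 6 CG, which 56.4% of promoters reached, and Tyro3 the richest with 31, which 10.6% reached. Mertk held 14 CG. The shares given are of all annotated promoters, not of the kept genes. Of 7380 kept genes with a promoter, taking the promoter with the most CG of each, 5394 reached the count of Gas6. Another 371 had fewer CG than Axl. The ratio of observed to expected CG, given the base composition, was highest for Tyro3 at 0.88 and lowest for Axl at 0.22, with Gas6 at 0.70, Pros1 at 0.64 and Mertk at 0.50 between them. The letters GGGCGG, the core of the GC box bound by Sp1-type factors, were counted on both strands; each match contains a CG and so overlaps the first motif. They occurred 4 times in the Gas6 promoter, 5 in Pros1, 2 in Axl, 6 in Tyro3 and 4 in Mertk, and 35.7% of all promoters held at least 1. These matches describe the reference sequence and are not sites shown to be used or methylated.

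Gas6, on chromosome 8, read 10.2 in Lsh+/+ MEF and 2.46 in Lsh-/- MEF. The wild type value stood 6.37 above the limit of its array and the knockout value 1.43 below that of its own. The difference was -7.77, or at least 81.0-fold lower in the knockout. No other kept gene had a difference as far below 0 or as far from 0 in either direction. The value rests on a single row (NM_019521), since RefSeq lists 1 transcript for the gene and the table held 1 row for it. Among 124 other kept genes whose wild type value lay within 0.5 of that of Gas6, 13 were at least 2-fold lower in the knockout and only the proteoglycan gene Gpc3, at 3.19, was below the limit there; their median difference was -0.17 and they ran from -6.70 to 0.996.

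**Figure D1:**
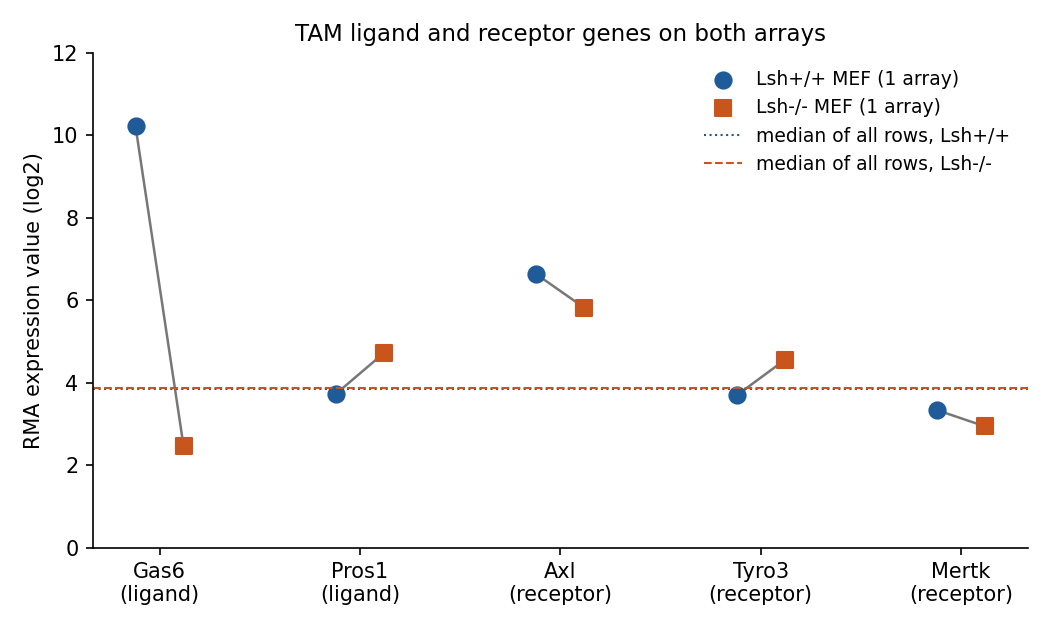
RMA expression value (log2) of each TAM gene on the Lsh+/+ array (circles) and the Lsh-/- array (squares), joined by a line, with the median of all rows of each array as horizontal lines at 3.86 and 3.88. Gas6 drops from 10.2 to 2.46, while the other 4 genes differ by less than 1 log2 unit, 2 upwards and 2 downwards.

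Pros1, on chromosome 16, which encodes the second TAM ligand and anticoagulant cofactor protein S, read 3.73 in Lsh+/+ MEF and 4.72 in Lsh-/- MEF. The wild type value was 0.13 below the limit and the knockout value 0.84 above it. Its difference of 0.99 was thus opposite in direction to that of Gas6 and lay just inside 2-fold, which is a difference of 1; over the limit it was at least 1.82-fold higher. Of all kept genes, 4.74% were as high or higher relative to the wild type. Pros1 was kept through the knockout array alone, where it was higher, so this share is a description and no support. With its wild type value below the limit, the size of this difference is open to the noise of dim rows, which could not be measured without replicates.

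Of the receptor genes only Axl had both values above the limit. Axl, on chromosome 7, is the receptor with the highest affinity for Gas6 and is widely expressed in fibroblasts. It read 6.63 in Lsh+/+ MEF and 5.82 in Lsh-/- MEF, a difference of -0.82 or 1.76-fold lower, and 8.74% of kept genes were as low or lower. Its 3 rows, for 3 transcripts, held identical values and are therefore 1 measurement.

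Tyro3, on chromosome 2, a receptor best known from the nervous system, read 3.69 in Lsh+/+ MEF and 4.55 in Lsh-/- MEF. The wild type value was 0.17 below the limit and the knockout value 0.67 above it, so that the difference was 0.86 and the fold at least 1.62. Of all kept genes, 6.51% were as high or higher, a share that is no support, since Tyro3 too was kept through the knockout array alone. Mertk, also on chromosome 2, the receptor through which macrophages and retinal pigment epithelium take up dying cells and shed outer segments, read 3.34 in Lsh+/+ MEF and 2.94 in Lsh-/- MEF. Both values lay below the limit, by 0.52 and 0.94, so no fold is given. As deposited, the log2 differences of the receptor genes thus lay on both sides of 0 and within 1 unit of it; for Tyro3 and Mertk, with dim values, this sets no upper bound on the fold.

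With 2-fold as the threshold, 1 of the 4 kept TAM genes, Gas6, was lower in the knockout and none was higher, while 3 lay within 2-fold. Over all 9169 kept genes 6.06% were at least 2-fold lower, 4.65% at least 2-fold higher and 10.7% either. These 556 lower and 426 higher genes became 1349 and 168 when the knockout array was scaled to the hybridisation controls described next. Since the members were chosen with this contrast known, nothing is read from their count. The middle 50% of the differences of kept genes ran from -0.34 to 0.35. Gas6, Pros1, Axl and Tyro3 lay outside it, as did Mertk at -0.40, which was not kept. Gas6, Pros1 and Tyro3 were kept through 1 array alone and so had to differ to some degree, and nothing is read from these places.

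**Figure D2:**
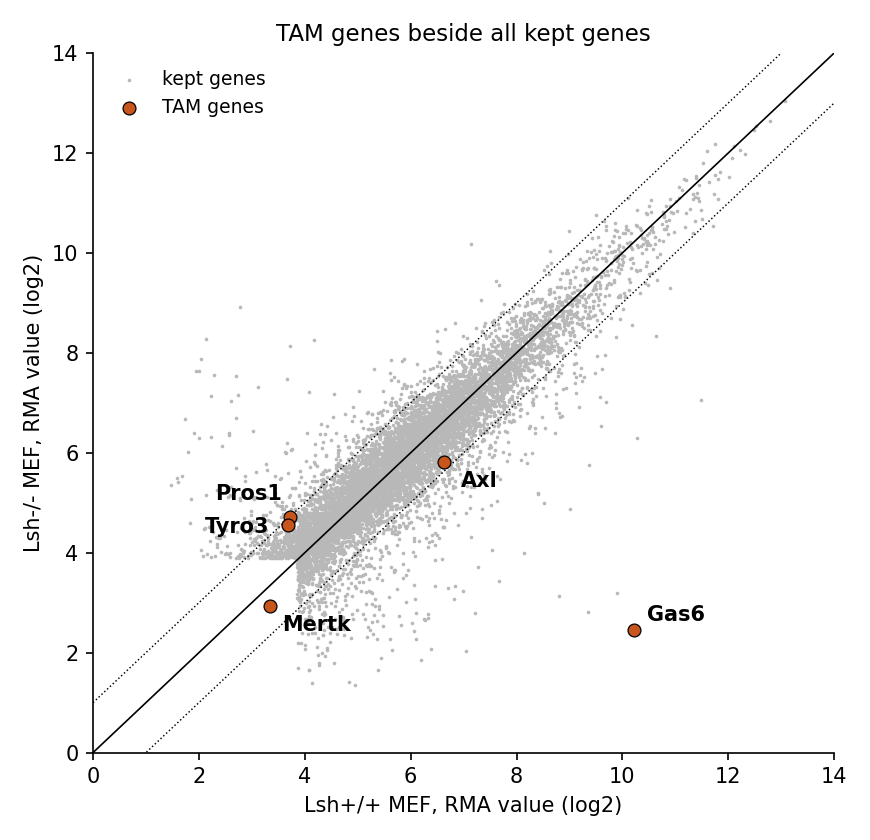
Expression value in Lsh-/- MEF against Lsh+/+ MEF (both RMA, log2) for the 9169 kept genes (grey) and the 5 TAM genes (orange; Mertk was not among the kept genes), with lines at no difference and at 2-fold. Gas6 is the kept gene farthest from the diagonal, at -7.77, and Axl, Pros1, Tyro3 and Mertk lie inside the 2-fold lines.

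Every direction given here is relative to the other genes on the arrays. The 9 rows for spiked bacterial and phage control RNAs, added at hybridisation, read higher in Lsh-/- MEF, with differences from 0.21 to 0.78 and a median of 0.44. Scaling to them moved the median of all kept genes from 0.01 to -0.43. It gave -8.20 for Gas6, 0.56 for Pros1, -1.25 for Axl, 0.42 for Tyro3 and -0.83 for Mertk, so that Axl then passed 2-fold. No member changed sign, and none could, since only Pros1 and Tyro3 were higher in the knockout, both by more than 0.44. The excess of the 3′ over the 5′ control row, which grows as RNA degrades, was larger in Lsh-/- MEF for Actb (3.15 against 2.56) and Gapdh (2.84 against 2.14) and smaller for 18S ribosomal RNA (1.52 against 2.11). Its part in the Gas6 value was not tested. Hells itself read 6.68 in Lsh+/+ MEF and 5.22 in Lsh-/- MEF, a difference of -1.46; the sources used here do not say where its probes lie relative to the deletion, and a row outside the deletion would check nothing about the labels.

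**Figure D3:**
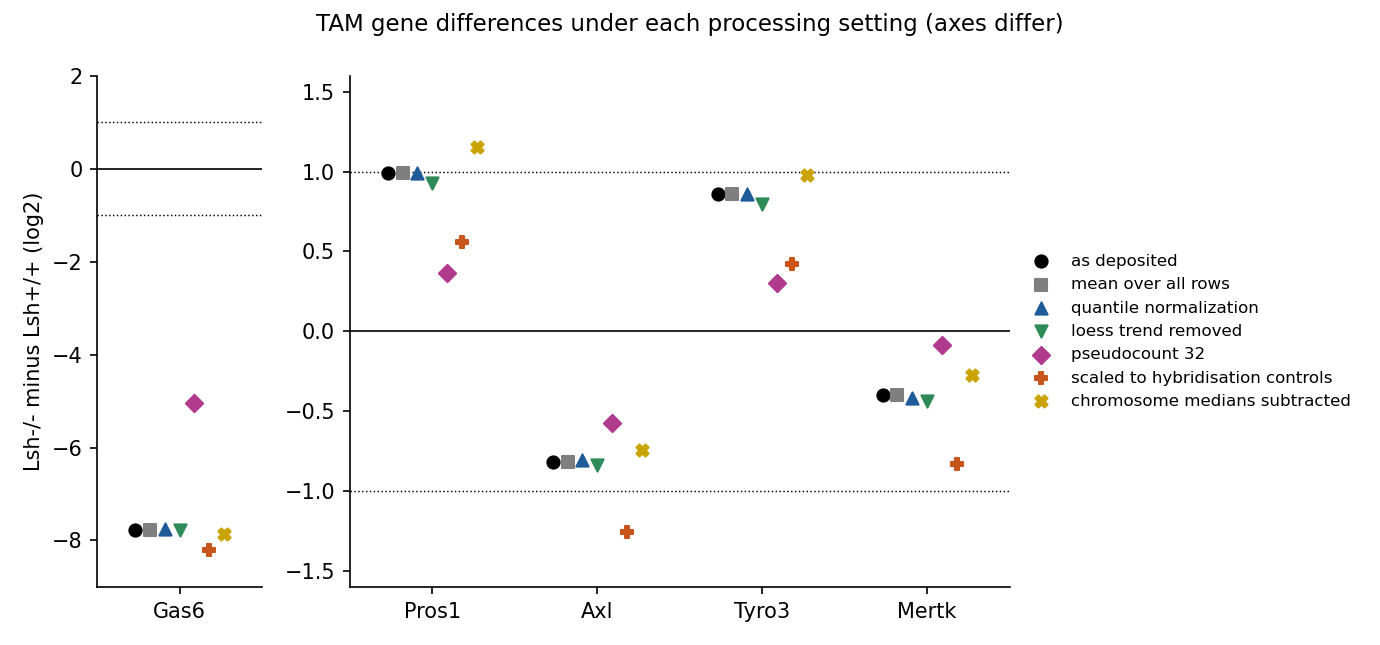
Lsh-/- minus Lsh+/+ difference (log2) of each TAM gene as deposited and under 6 other processing settings, with Gas6 on a longer axis at left and dotted lines at 2-fold. All settings keep the sign of every gene. The mean over rows and the pseudocount could not change a sign by construction. Nor could the scaling or the chromosome medians, whose shifts were too small, so the kept signs are no evidence for a direction. Gas6 spans -8.20 to -5.03, and the pseudocount of 32 draws all 5 genes towards 0.

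The pair of values of Gas6 was most like those of Gpc3, Mmp2, Tgfbi, Tmem88 and Fmod among all kept genes. Likeness was the Euclidean distance between pairs of log2 values over the 2 arrays, and it was 0.81 for Gpc3, 0.95 for the matrix metalloproteinase Mmp2 and 1.59 for the matrix protein Tgfbi, followed by 2.59 for Tmem88 and 2.70 for the collagen-binding proteoglycan Fmod. Gas6, Gpc3, Mmp2 and Tgfbi were below the limit in the knockout, and Tmem88 and Fmod were above it at 3.99 and 4.87. With 2 arrays such a likeness says only that both values were close.

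The difference of Gas6 was the largest of all kept genes, so a smaller difference in its neighbours was fixed in advance. The nearest measured genes on its sides, the retinal kinase gene Grk1 and 1700029H14Rik, were below the limit on both arrays. They read 2.47 and 2.37 for Grk1 and 2.24 and 2.01 for 1700029H14Rik, too dim in Lsh+/+ MEF for a loss to show. Of the 5 measured genes on each side, 8 were kept, none was 2-fold apart, and their differences ran from -0.75 to 0.39. With 10.7% of all kept genes 2-fold apart, this count is no result about the locus. The 522 kept genes of chromosome 8 had a median difference of 0.09. Beside Pros1, Stx19 and Epha3 lay below the limit on both arrays (at most 1.93), and the 4 kept genes of the 10 around it ran from -0.71 to 0.16, against 0.99 for Pros1. Beside Axl, Ccdc97 differed by 0.55 and the cytochrome P450 gene Cyp2s1 by -0.43, and the 6 kept neighbours ran from -0.62 to 0.55. Beside Tyro3, Rpap1 and Mga differed by 0.13 and -0.01, and the 7 kept neighbours, from -0.49 to 0.20, all lay below the 0.86 of Tyro3. Around Mertk, Anapc1, a subunit of the anaphase-promoting complex, differed by -0.33 and Tmem87b by -0.60, within a range of -0.79 to 0.99 for the 7 kept neighbours. Neighbours were taken from the gene order of GRCm38.p6.

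**Figure D4:**
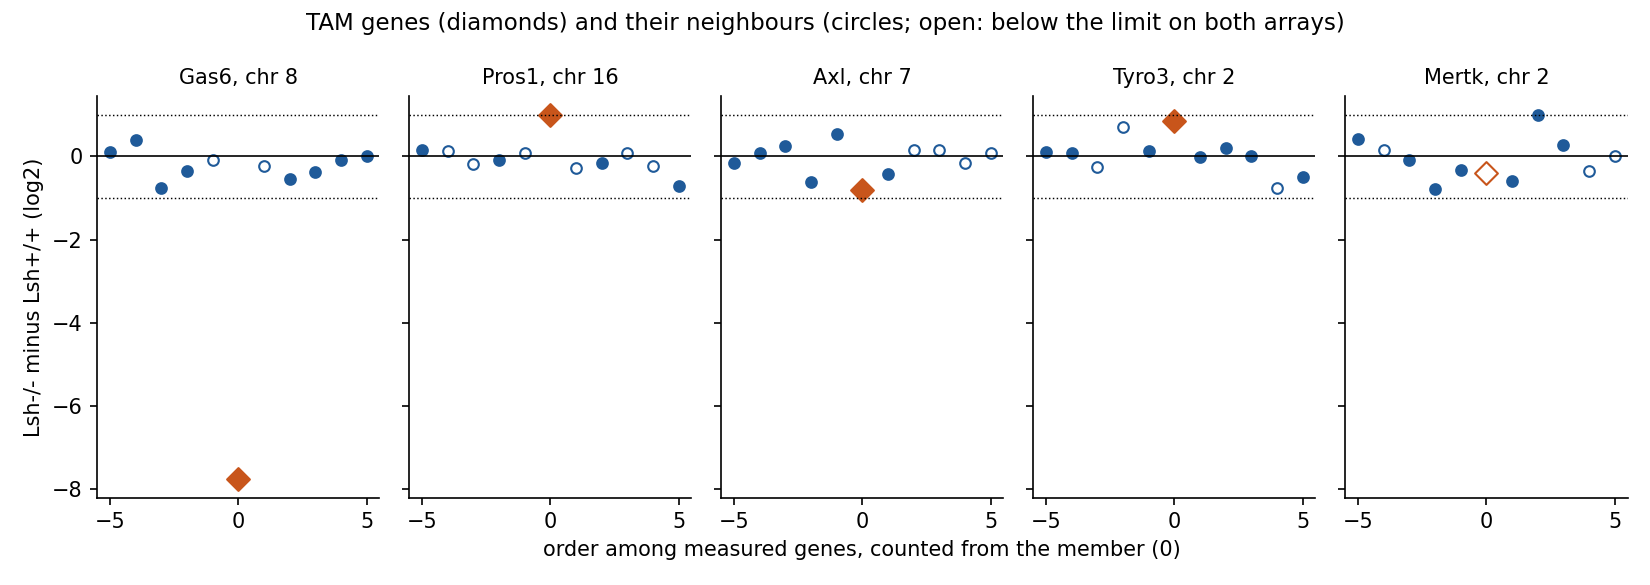
Lsh-/- minus Lsh+/+ difference (log2) of each TAM gene (diamond) and of the 5 measured genes on each side in chromosomal order (circles; open symbols were below the limit on both arrays), with dotted lines at 2-fold. Gas6 at -7.77, the largest difference of all kept genes, lies below neighbours between -0.75 and 0.39. No neighbour of any TAM gene passes the 2-fold lines, which 10.7% of all kept genes reach.

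The next 10 lists hold genes that serve the TAM pathway and genes that are only related to its members. The latter are other Gla-domain proteins, growth arrest specific genes and other receptor tyrosine kinases. Of 136 measured genes in these lists, with the TAM genes left out, 84 were kept. Of these, 4 were at least 2-fold lower, 2 at least 2-fold higher and 78 within. Their median was -0.17 and 60.7% of them lay below 0, against 0.01 and 48.2% over all kept genes. With 10.7% of all kept genes 2-fold apart, the count of 6 in 84 is no result about the pathway. Maturation of both ligands needs the vitamin K cycle. Its kept genes numbered 5, none of them 2-fold apart, with a median of -0.16. The farthest was Aifm2, which encodes a vitamin K reductase, at 7.40 and 6.48, a difference of -0.91, whereas the carboxylase gene Ggcx read 4.67 and 4.60. Of the other Gla-domain genes 4 of 11 measured were kept and none passed 2-fold. Their median was 0.23, and Prrg2, a transmembrane Gla protein, was farthest from 0 at 0.83, while Mgp, the matrix Gla protein that restrains calcification, read 9.78 and 9.38.

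Genes acting on the phosphatidylserine signal gave a like picture with a few exceptions. Of 7 kept genes for its exposure none passed 2-fold, their median was 0.10, and the flippase gene Atp11b was farthest at -0.62. Other bridging proteins and receptors for dying cells had 11 kept members with a median of -0.42, of which 2 were at least 2-fold lower and none higher. Thbs1, a matrix protein that bridges dying cells to phagocytes, read 6.28 and 4.73, a difference of -1.55, and the scavenger receptor Scarb1 read 7.36 and 6.27, a difference of -1.09. Of 9 kept genes of the engulfment machinery none passed 2-fold; their median was -0.24 and the adaptor gene Crk was farthest from 0 at 0.63. Lgals3, encoding galectin-3, a reported further ligand of Mertk, read 8.88 and 7.93, a difference of -0.95, and the reported ligand genes Tub and Tulp1 were below the limit on both arrays.

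Downstream of the receptors, none of 20 kept adaptors, effectors and induced inhibitors passed 2-fold, and their median was -0.10. Twist1, a transcription factor reported to act below Axl in the control of cytokines, was the farthest, at 5.20 and 4.27, a difference of -0.94. The sheddases Adam10 and Adam17, which cut the receptors from the cell surface, differed by 0.21 and 0.08. The 5 kept genes of the growth arrest specific series other than Gas6 had a median of 0.06, none of them 2-fold apart, and Gas2l1 was farthest from 0 at 0.80. Other receptor tyrosine kinases, 20 of them kept, had a median of -0.30, with 2 at least 2-fold lower and 2 at least 2-fold higher. The platelet-derived growth factor receptor genes Pdgfra and Pdgfrb differed by -1.19 and -1.15, the collagen receptor Ddr2 by 1.39 and the vascular endothelial growth factor receptor Kdr by 1.82. The -0.82 of Axl and the 0.86 of Tyro3 lay inside this range.

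**Figure D5:**
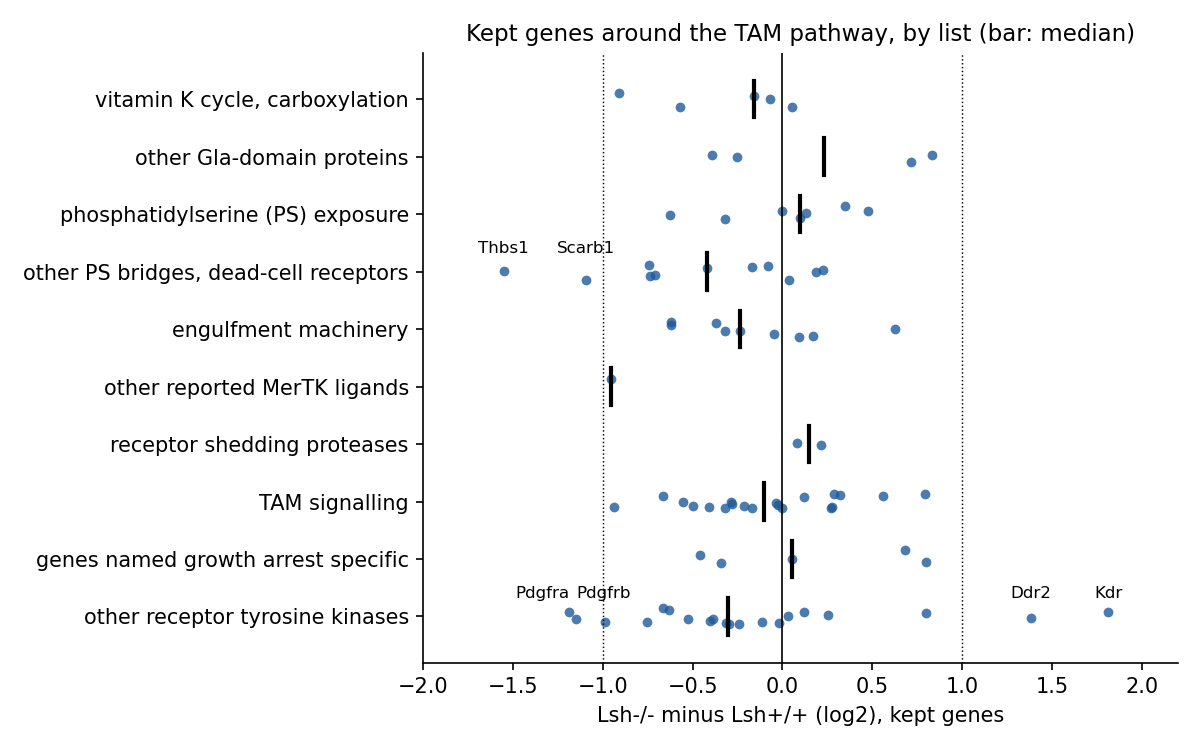
Lsh-/- minus Lsh+/+ difference (log2) of the kept genes of 10 lists around the TAM pathway, 1 point per gene, with a bar at each list's median and dotted lines at 2-fold (PS, phosphatidylserine). Only Thbs1, Scarb1, Pdgfra, Pdgfrb, Ddr2 and Kdr of the 84 genes lie outside the 2-fold lines.

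The label of the cells was read against marker genes. Over all kept genes 6.06% were at least 2-fold lower and 4.65% at least 2-fold higher. Summed linear levels take in every measured gene of a list, also those below the limit. Of 18 fibroblast markers 17 were kept, 6 of them at least 2-fold lower and none higher, with a median of -0.73 and a summed linear level of 24579 in Lsh+/+ MEF and 17405 in Lsh-/- MEF. The lower ones included Col1a2, a chain of type I collagen (-4.43), S100a4 (-3.99) and Postn, a matricellular protein (-3.74), while Vim and Fn1 differed by -0.09 and -0.03. Blood cell markers, of interest because macrophages express Mertk, were dim. Of 13 measured, Itgb2 alone was kept, at 4.27 and 3.83, and Ptprc and Adgre1, which define leukocytes and macrophages, read 1.89 and 2.64 on both arrays. Their summed linear level was 109 in Lsh+/+ MEF and 88.9 in Lsh-/- MEF. With 12 of the 13 below the limit on both arrays, these sums cannot show a difference in blood cell RNA. Smooth muscle markers were lower, 4 of 7 kept by at least 2-fold and none higher, with summed linear levels of 2938 and 1100; Myl9, Tagln and Cnn1 differed by -3.53, -2.68 and -1.94. Of 4 kept simple epithelial markers the keratins Krt18 and Krt19 were higher, by 6.15 and 3.05, and none was 2-fold lower. Krt8 and Krt7, the others kept, differed by 0.24 and -0.35. The summed linear levels of the list were 444 and 1919, while Epcam and Cdh1 stayed below the limit on both arrays. Among endothelial markers Kdr and Egfl7 (-1.73) were kept and Pecam1 and Cdh5 were dim, with summed levels of 223 and 251, and the neural and glial markers, of which Ncam1 (-0.76) and Nes were kept, summed to 198 and 143. The part of these shifts in the Gas6 value was not tested, and fewer cells that express a gene cannot be told apart from less RNA per cell in such a bulk measurement.

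Over the 7380 kept genes with a promoter sequence, taking the promoter with the most CG of each gene, the share at least 2-fold lower in the knockout was 4.47% of 5394 genes with as many CG as Gas6 or more, 7.55% of 1615 genes between Axl and Gas6, and 17.5% of 371 genes with fewer than Axl. The shares at least 2-fold higher were 3.58%, 5.26% and 10.5% in the same order. The median wild type level also differed between these classes, at 5.84, 5.63 and 4.88, and its part in the shares was not tested. Pros1 and Tyro3 belong by sequence to the first of these classes, in which the share of genes 2-fold apart was lowest. Gas6 belongs to it by construction, since its own count set the boundary, so nothing is read from its place.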

How the data were processed

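Total RNA from Lsh+/+ and Lsh-/- MEF was measured on Affymetrix mouse arrays, 1 per genotype. The authors deposited log2 values made with RMA (background correction, quantile normalization and probe summary), per the submitters' processing notes; version, probe grouping and genome build are not stated in the sources at hand. The log2 scale was read from the values, which run from 0.89 to 13.1. Of 23950 rows 64 were control rows and 23886 carried transcript accessions, of which 21230 matched 1 gene of the GRCm38.p6 table without version. Of several rows per gene, the brightest by mean was used. No test was possible. Alternatives were the mean over rows, quantile normalization, loess (span 0.3), a pseudocount of 32, scaling to hybridisation controls, chromosome medians, other limits, and thresholds of 1.5-fold and 3-fold. The counting code was checked on simulated data with planted differences, which is no check of the 2-fold calls in these data. Named genes were the members, Hells, up to 3 genes past 2-fold in each direction of a list (or, failing these, its farthest gene), the adjacent genes and the 5 pairs nearest to Gas6. Vim, Fn1, Ptprc, Adgre1, Ggcx, Mgp, Nes, Krt8, Krt7, Epcam, Cdh1, Pecam1, Cdh5, Tub, Tulp1 and Adam17 were named besides. Members and lists were chosen with earlier results of these data known. Python 3.11.15, numpy 2.4.6, pandas 2.3.3, statsmodels 0.14.6 and matplotlib 3.10.9 were used.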

Additional observations from a re-analysis of the deposited data

How the results depend on the processing

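No paired analysis was possible because there was a single array of each genotype, which also left no replicate to omit. With no replicates, a difference was counted as moved where it shifted by more than 0.51, the central spread of the differences of all kept genes taken as an SD. Scaling to the hybridisation controls shifted every difference by the same 0.44, so by this rule no gene or list median could count as moved under it. Across 6 alternatives Gas6 ran from -8.20 to -5.03, Pros1 from 0.37 to 1.15 and Axl from -1.25 to -0.57. Tyro3 ran from 0.30 to 0.98 and Mertk from -0.83 to -0.09, so no sign changed. Of the alternatives, the mean over rows could change no member, since none had more than 1 distinct row. A sign could not change under the pseudocount either, since it was added alike on both arrays. The shift of 0.44 by the scaling was smaller than the 0.99 of Pros1 and the 0.86 of Tyro3. The chromosome medians subtracted, from -0.16 to 0.09, were smaller in size than the difference of any member. Quantile normalization repeated a step that RMA had already made. The kept signs are therefore no evidence for a direction. The pseudocount of 32, which shrinks dim values by construction, gave -5.03 for Gas6, 0.37 for Pros1 and 0.30 for Tyro3. Pros1 passed 2-fold with chromosome medians subtracted (1.15) and Axl when scaled to the hybridisation controls (-1.25). The counts of 556 lower and 426 higher genes became 193 and 101 with the pseudocount, 1349 and 168 with that scaling, 314 and 225 with an upper-quartile limit, 1267 and 1254 at 1.5-fold, and 240 and 131 at 3-fold. The share of higher genes among them was 43.4% as deposited, 49.7% at 1.5-fold, 34.4% with the pseudocount and 11.1% with the scaling. Of 79 list medians under alternatives, 7 took the other sign and 2 moved: the further Mertk ligands to -0.31 with no limit, where 3 genes in place of 1 entered, and the other Gla-domain genes to -0.39 with the upper-quartile limit, where 1 gene was left. The sheddase list gave no value at that limit, since none of its genes was left. With the scaling, the medians of the other Gla-domain, phosphatidylserine exposure, sheddase and growth arrest specific lists went from above to below 0.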

Other observations

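Few genes went from bright on 1 array to dim on the other. Of 4388 kept genes whose wild type value lay in the upper quartile of all rows, 32 were below the limit in the knockout, and of 4411 whose knockout value did so, 28 were below the limit in the wild type. Gas6 had the largest difference of the 32. These counts were made after the values were seen, and no test was possible with 1 array per genotype.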
